A study of Homo sapiens with 8 samples.

Results

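The genes described here are the receptors and ligands of the GDNF family, 10 genes in all out of 26475 rows of the count table. They were picked by symbol: the co-receptors GFRA1, GFRA2, GFRA3, GFRA4 and GFRAL, the receptor kinase RET, and the ligands GDNF, NRTN, ARTN and PSPN. The choice was made with the difference between the 2 groups of this study already known, so the members' values are given as a description and carry no test. The samples were 8 RNA libraries of BT474, an established luminal breast cancer line with amplified ERBB2, 4 labelled NPY1R high and 4 labelled NPY1R low. NPY1R encodes the neuropeptide Y receptor Y1. All 8 libraries come from the same line, no drug or other agent is named for either group, and how high and low cells were obtained is not given in the sources used here. The series title refers to cells that persist under lapatinib, an inhibitor of EGFR and ERBB2, and the comparison asks how cells with much and with little NPY1R differ. Nothing states that replicates were separate cultures, so the spread between them may be technical.

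GDNF family ligands do not bind their kinase directly. Each ligand binds a co-receptor held in the membrane by a lipid anchor (GDNF prefers GFRA1, neurturin GFRA2, artemin GFRA3 and persephin GFRA4), and the pair then brings RET molecules together so that they phosphorylate each other. The system is known best from developing neurons and kidney, and in estrogen receptor-positive breast cancer cells RET and GFRA1 are known as estrogen-responsive genes. GFRAL, a distant relative expressed in the hindbrain, binds GDF15 and also signals through RET.

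Library totals ran from 18025648 to 30609791 expected counts. NPY1R itself, which checks the labels, had values of 699.2, 727.8, 1048.9 and 950.2 CPM (the count scaled to library size, in the usual unit) in NPY1R high replicates 1 to 4. The NPY1R low replicates were at 90.8, 94.9, 92.8 and 103.7 CPM. Markers of luminal epithelium (7 genes, KRT8 and KRT18 among them) summed to 4141 to 4776 CPM where NPY1R was high. They summed to 4149 to 4988 CPM where it was low. Most of these sums came from KRT8, KRT18, KRT19 and CDH1, which were not called. The markers were not all alike in the groups, since ESR1 and GATA3 were called higher in NPY1R high and EPCAM lower. EPCAM stood at 215.9 to 235.3 CPM in NPY1R high and 256.8 to 289.0 CPM in NPY1R low (log2 change -0.30, edgeR adjusted p 0.00436). ERBB2 was between 2632 and 4289 CPM in every library. Of the 5 neuron markers, 4 (RBFOX3, SNAP25, ELAVL4 and STMN2) were at or below 0.235 CPM in each library. The fifth, SYT1, a synaptic vesicle protein, made the list's sum 4.99 to 5.67 CPM where NPY1R was high and 1.49 to 2.42 CPM where it was low. SYT1 was called higher in NPY1R high (log2 change 1.44, edgeR adjusted p 0.000271), and its part in the results was not tested. Schwann cell and glial markers summed to at most 0.196 CPM, with S100B at 0 counts, and leukocyte markers to at most 2.07 CPM, with CD3E at 0 counts. Fibroblast markers summed to 10.9 to 17.5 CPM in the NPY1R high and 10.4 to 17.5 CPM in the NPY1R low libraries, nearly all COL1A1, with COL1A2 and PDGFRB at 0 counts. Endothelial markers summed to 9.22 to 15.5 and 13.5 to 18.2 CPM, nearly all VWF, which was not called (edgeR adjusted p 0.0987). Basal markers summed to 5.05 to 8.98 and 4.80 to 7.78 CPM, mostly TP63, with KRT14 at 0 counts. The part of these lists in the results was not tested.

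GFRA1 and RET lie far apart on chromosome 10 and differed between the groups in opposite directions, so their promoter windows are shown side by side. Each is the 250 bases before the RefSeq start site on GRCh38.p14, written 5′ to 3′ on the gene's own strand. The GFRA1 window is chr10:116274706-116274955 on the minus strand and the RET window is chr10:43076819-43077068 on the plus strand. Capitals mark matches to the motifs searched on both strands: the full palindromic estrogen response element, GGTCA, the core that the full element contains, the AP-2 motif GCCNNNGGC and the forkhead motif TGTTTAC.
GFRA1: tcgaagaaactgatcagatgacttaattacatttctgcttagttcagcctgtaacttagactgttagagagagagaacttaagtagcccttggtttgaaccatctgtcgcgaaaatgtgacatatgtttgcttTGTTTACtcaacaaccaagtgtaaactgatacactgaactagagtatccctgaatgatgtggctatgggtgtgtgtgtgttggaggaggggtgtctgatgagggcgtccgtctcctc
RET: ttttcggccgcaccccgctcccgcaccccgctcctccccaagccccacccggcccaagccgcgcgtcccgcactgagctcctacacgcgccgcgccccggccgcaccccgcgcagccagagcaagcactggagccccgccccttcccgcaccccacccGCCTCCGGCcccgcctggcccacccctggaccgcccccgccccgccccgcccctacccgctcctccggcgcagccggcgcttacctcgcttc
The GFRA1 window holds 43.2% G and C and a single forkhead match, whose first base is at -117 from the start. That motif is in 2.98% of 35116 RefSeq windows of the same length. The RET window holds 79.6% G and C and a single AP-2 match at -92, a motif found in 19.8% of windows. Neither window holds GGTCA, which 32.6% of windows do, or the full estrogen response element, which 0.0399% do. A match is only a match of letters, and distant enhancers lie outside these windows.

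GFRA1, the co-receptor that GDNF prefers, was the member with the widest difference. It had 6060, 5869, 6964 and 5303 counts in NPY1R high and 472, 379, 462 and 535 counts in NPY1R low. Scaled to depth these were 208.2, 218.2, 252.0 and 292.0 CPM against 15.8, 13.3, 21.1 and 21.0 CPM. Every NPY1R high library stood above every NPY1R low library, and the lowest of the former was 9.85 times the highest of the latter. The means were 242.6 ± 37.9 and 17.8 ± 3.91 CPM (SD, n = 4 each), and the fitted log2 difference was 3.77 (SE 0.17), the sixth from the top among 14008 tested genes. Counting error is a small part of this spread, since the coefficient of variation in NPY1R high was 15.6% where counts alone would give 1.29%. In bulk RNA, fewer cells that express a gene and less RNA per cell cannot be told apart.

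RET, the kinase through which all these co-receptors signal, was lower in NPY1R high. Its counts were 2162, 1689, 2390 and 1892 in NPY1R high and 3204, 2985, 2793 and 3028 in NPY1R low. These correspond to 74.3, 62.8, 86.5 and 104.2 CPM against 107.5, 104.5, 127.8 and 118.9 CPM. The groups did not overlap, but barely so: the lowest NPY1R low library was 1.00 times the highest NPY1R high library. The means were 81.9 ± 17.7 and 114.7 ± 10.7 CPM (SD, n = 4 each), a log2 difference of -0.49 (SE 0.14). Leaving out each library in turn gave log2 differences from -0.58 to -0.38.

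**Figure D1:**
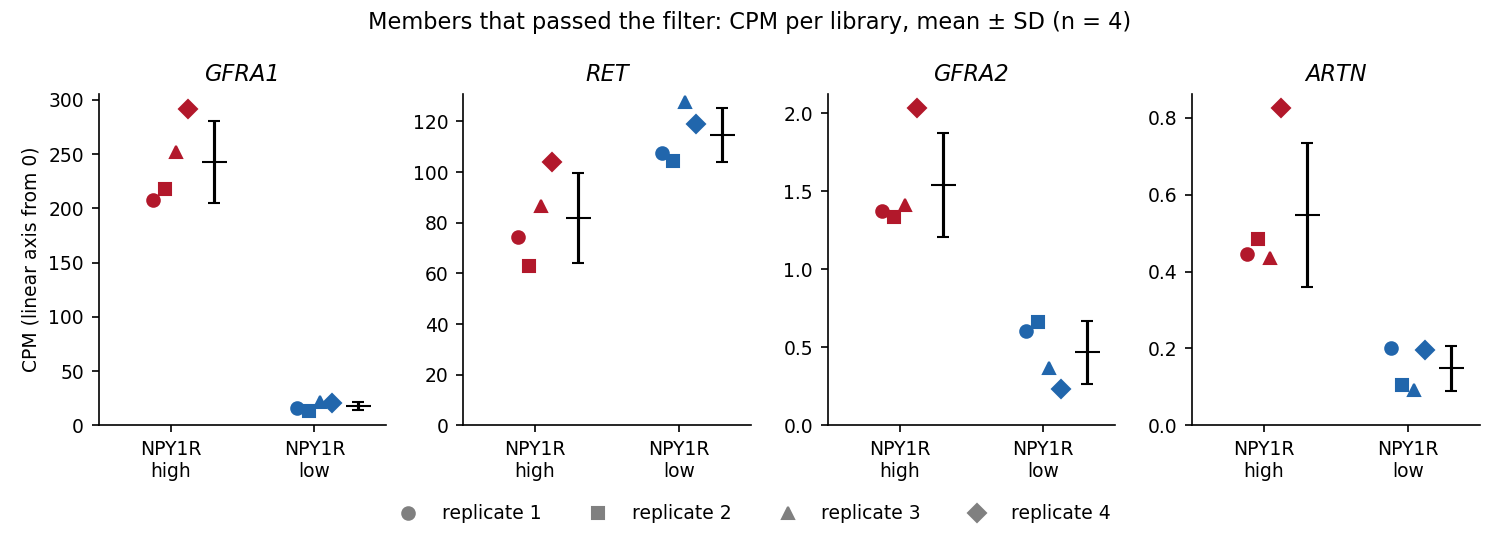
CPM of GFRA1, RET, GFRA2 and ARTN (vertical axes, linear from 0, a separate scale for each gene) in the 4 NPY1R high (red) and 4 NPY1R low (blue) libraries, with a symbol for each replicate number and the mean ± SD beside them. GFRA1, GFRA2 and ARTN are higher in each NPY1R high library, while the highest RET value in NPY1R high, 104.2 CPM, comes close to the lowest in NPY1R low, 104.5 CPM.

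Replicates 3 and 4 stood above replicates 1 and 2 for both genes and in both groups. GFRA1 was at 252.0 and 292.0 CPM against 208.2 and 218.2 CPM in NPY1R high, and at 21.1 and 21.0 CPM against 15.8 and 13.3 CPM in NPY1R low. RET followed the same division, which the labels do not name as a batch. Within replicates 1 and 2, RET reached at most 74.3 CPM in the first group and at least 104.5 CPM in the second, a difference of -0.63 in mean log2 CPM. Within replicates 3 and 4 it reached at most 104.2 CPM against at least 118.9 CPM, a difference of -0.38. The GFRA1 difference was 3.87 within replicates 1 and 2 and 3.68 within replicates 3 and 4.

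Per length of transcript, the order of co-receptor and kinase was opposite in the 2 groups. GFRA1 was at 34.8 ± 5.44 CPM per kilobase in NPY1R high and 2.56 ± 0.561 in NPY1R low, and RET at 17.4 ± 3.75 and 24.3 ± 2.27 CPM per kilobase (SD, n = 4 each). In NPY1R high there were 1.90, 2.35, 1.97 and 1.90 GFRA1 transcripts for each RET transcript in replicates 1 to 4. In NPY1R low the same ratio was 0.0997, 0.0859, 0.112 and 0.120. RET thus stood at 8.37 to 11.6 times GFRA1 in the NPY1R low libraries. With the longest annotated transcript in place of the mean length, the mean ratio was 1.84 in NPY1R high and 0.0946 in NPY1R low. Among 13179 tested genes with a length, GFRA1 was above 82.2% in NPY1R high and 26.9% in NPY1R low, whereas RET was above 67.3% and 74.4%. The length scale comes from GENCODE transcripts of 6969 bases on average for GFRA1 and 4715 for RET, and the isoforms that these cells use were not determined.

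**Figure D2:**
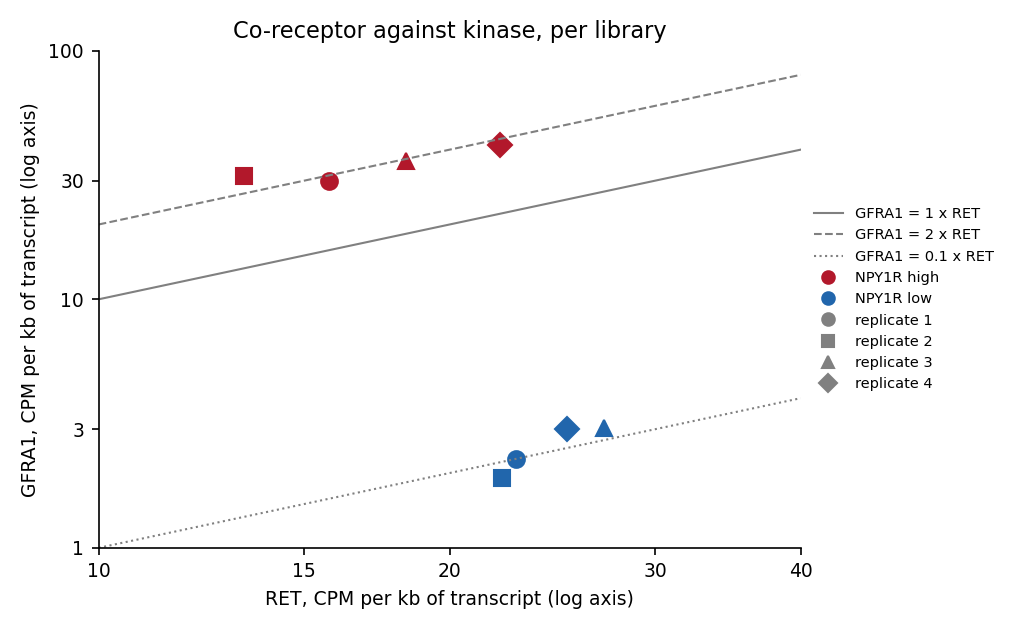
GFRA1 against RET in each of the 8 libraries, both as CPM per kilobase of transcript on log axes, with lines for GFRA1 at 1, 2 and 0.1 times RET. The 4 NPY1R high libraries (red) lie near the line for 2, between 1.90 and 2.35, and the 4 NPY1R low libraries (blue) near the line for 0.1, between 0.0859 and 0.120.

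GFRA2, the preferred co-receptor of neurturin, was also higher in NPY1R high but at a far lower level. It had 40, 36, 39 and 37 counts in NPY1R high and 18, 19, 8 and 6 in NPY1R low. These are 1.37, 1.34, 1.41 and 2.04 CPM against 0.604, 0.665, 0.366 and 0.236 CPM, with no overlap and a log2 difference of 1.67 (SE 0.31). The difference was uneven over the replicates, at 1.01 in mean log2 CPM for replicates 1 and 2 and 2.25 for replicates 3 and 4. Per kilobase it reached 0.635 ± 0.137 CPM in NPY1R high (SD, n = 4), so that GFRA1 made up 98.1% ± 0.173 of all co-receptor transcripts in NPY1R high and 90.6% ± 3.48 in NPY1R low (SD, n = 4 each).

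The remaining co-receptors were close to absent from the counts. GFRA3, the partner of artemin, had 0, 5, 1 and 0 counts in NPY1R high and 1, 1, 6 and 3 in NPY1R low, with the groups overlapping. GFRA4, the persephin co-receptor, and GFRAL, the GDF15 receptor, had 0 counts in all 8 libraries. A count of 0 is compatible with up to 3 counts in a library, which at these depths is 0.101 to 0.165 CPM.

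Of the 4 ligands, ARTN alone passed the filter on low counts. Artemin had 13, 13, 12 and 15 counts in NPY1R high and 6, 3, 2 and 5 in NPY1R low, or 0.447, 0.483, 0.434 and 0.826 CPM against 0.201, 0.105, 0.0915 and 0.196 CPM. The libraries of the 2 groups did not overlap, and the log2 difference was 1.78 (SE 0.38). With so few counts the spread in NPY1R high, a coefficient of variation of 34.1%, is near the 27.5% that counting alone would give. Per kilobase ARTN stood at 0.483 ± 0.165 CPM in NPY1R high and 0.131 ± 0.0515 in NPY1R low (SD, n = 4 each), far below both GFRA1 and RET.

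GDNF, the ligand after which the family is named, had 3, 2, 1 and 1 counts in NPY1R high and 2, 1, 1 and 0 in NPY1R low. Neurturin (NRTN) had 0, 1, 2 and 1 counts against 0, 1, 2 and 0. Persephin (PSPN) had 0 counts in all 8 libraries. GDNF summed to 7 counts in NPY1R high (95% exact Poisson interval 2.81 to 14.4) and 4 in NPY1R low (1.09 to 10.2), so no difference was detectable at this depth. These intervals cover counting error only. GDNF-AS1, a non-coding RNA whose gene overlaps that of GDNF, had 8 counts over the NPY1R high libraries and 1 over the NPY1R low libraries, and since strand use in the counting is not stated, reads of the pair may not be separable. PSPN overlaps ALKBH7, which had 249 counts over the NPY1R high libraries and 295 over the NPY1R low libraries, while PSPN stayed at 0.

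In all, 4 of the 10 members passed the filter, which asks for about 0.374 CPM in at least 4 libraries. GFRA1 and RET met it in both groups. GFRA2 met it in 4 NPY1R high and 2 NPY1R low libraries, and ARTN in 4 and 0, so these 2 genes entered the fit through the group in which they were high. The groups did not overlap for any of the 4, with GFRA1, GFRA2 and ARTN higher and RET lower in NPY1R high. Among all 14008 tested genes the groups did not overlap for 20.2% (8.77% higher and 11.4% lower), and because this contrast was known when the members were chosen, nothing is read from their count.

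The genes next to GFRA1 and RET gave no call. GFRA1 spans chr10:116056925-116274705 on GRCh38.p14. The nearest tested genes on either side are ATRNL1, 107.9 kb away, with a log2 change of 0.87 (SE 0.46, edgeR adjusted p 0.276), and HSPA12A, 396.5 kb away, with 0.11 (SE 0.12, edgeR adjusted p 0.638). RET spans chr10:43077069-43130351, between BMS1, with -0.05 (SE 0.06, edgeR adjusted p 0.687), and CSGALNACT2, only 8.09 kb away, with -0.01 (SE 0.08, edgeR adjusted p 0.958).

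Genes that work with the receptors were then examined in 5 lists, written with earlier results of these data known. The counts of calls in these lists are therefore a description. Of all 14008 tested genes 13.6% were called (quasi-likelihood test of edgeR, adjusted p below 0.05), 5.78% higher and 7.81% lower in NPY1R high. That made 42.5% of the calls higher with TMM scaling and its default reference library, NPY1R low replicate 4. The share was 49.5% to 53.1% with each of the other 7 libraries as TMM reference and 56.3% with upper-quartile factors. The median log2 change over all genes was -0.03 with the default reference and 0.03 with upper-quartile factors.

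The list of surface partners of the ligands and co-receptors held 7 genes. It also took in NCAM2, a relative of NCAM1, and GDF15, a ligand rather than a surface partner. Of the 7, 5 were tested, with a median log2 change of 0.19. NCAM2 was called higher and GDF15 lower, and no other gene of the list was called. Among all 14008 tested genes 5.78% were called higher and 7.81% lower, and nothing is read from the counts of this list. NCAM1, the adhesion molecule that can receive GDNF without RET, averaged 0.856 ± 0.162 CPM where NPY1R was high and 0.426 ± 0.243 CPM where it was low (SD, n = 4 each) and was not called (log2 change 0.95, edgeR adjusted p 0.131). Its relative NCAM2, also an adhesion molecule, rose from 36.2 ± 6.75 to 134.4 ± 11.9 CPM (SD, n = 4 each; log2 change 1.89, SE 0.13, edgeR adjusted p 1.34e-05). GDF15, the stress-induced ligand of GFRAL, was lower in each NPY1R high library, at 0.240, 0.335, 0.470 and 0.551 CPM against 1.24, 1.33, 1.65 and 1.61 CPM. Its log2 change was -1.89 (SE 0.27, edgeR adjusted p 0.00119), in cells where GFRAL had no count. Only the NPY1R low libraries were all above the filter's level of about 0.374 CPM. GDF15 thus entered the fit through the group in which it was high. SDC3 and SORL1, which also bind these ligands or GFRA1, had log2 changes of 0.19 and 0.04 and were not called.

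The adaptors and proximal effectors of RET had calls in both directions. Of 28 tested, 6 were higher, 3 lower and 19 not called, with a median of 0.01. For comparison, 5.78% of all 14008 tested genes were called higher and 7.81% lower. The list was written with earlier results of these data known, so its counts are a description only. The highest was DOK6, a docking protein that binds RET, with 4.53, 6.28, 5.46 and 5.62 CPM in NPY1R high and 2.82, 1.86, 2.47 and 1.85 CPM in NPY1R low (log2 change 1.28, SE 0.18, edgeR adjusted p 0.00111). IRS1, an adaptor better known from insulin receptor signalling, rose from 45.5 ± 1.75 to 102.3 ± 15.3 CPM (SD, n = 4 each; log2 change 1.17, SE 0.10, edgeR adjusted p 4.37e-05). PIK3R1, the regulatory subunit of PI3-kinase, rose by 0.67 (SE 0.05, edgeR adjusted p 3.94e-05), and SH3KBP1, GRB10 and FRS2 by 0.50, 0.49 and 0.33 on the log2 scale. The core adaptors SHC1, GAB1, GAB2, SOS1, PTPN11 and PLCG1 had log2 changes between -0.13 and 0.07 and were not called.

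Among the 3 lower adaptors, GRB7, which binds RET and lies in the ERBB2 amplicon, had a log2 change of -0.51 (SE 0.08, edgeR adjusted p 0.00229). RAP1GAP, which switches off the small GTPase RAP1, had -0.72 (SE 0.21, edgeR adjusted p 0.0446) with overlapping groups, and lost the call in 14 of 28 alternatives, with adjusted p up to 0.126. GRB2, the adaptor that recruits SOS1, had -0.18 (SE 0.05, edgeR adjusted p 0.0428) and lost the call in 23 of 28 alternatives, with adjusted p up to 0.244. The number of lower adaptors ranged from 1 to 7 over the alternatives, and the 7 came with a GC offset.

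Genes transcribed in response to RET and the MAP kinase cascade were mostly lower in NPY1R high. RET itself was not low there, with a mean of 81.9 CPM against 114.7 CPM in NPY1R low. Of 19 tested, 11 were lower, 1 higher and 7 not called, with a median log2 change of -0.44. Among all 14008 tested genes, 7.81% were called lower and 5.78% higher. This list was written with earlier results of these data known, so its share of lower calls is a description only. Many of the listed genes respond to other receptor kinases too, ERBB2 and EGFR included, so the list is not particular to RET. The ETS factors ETV4 and ETV5, which GDNF induces through RET in the developing kidney, fell furthest. ETV4 stood at 1.44, 1.19, 0.977 and 1.16 CPM in NPY1R high and 5.44, 6.48, 5.77 and 5.30 CPM in NPY1R low (log2 change -2.26, SE 0.16, edgeR adjusted p 1.78e-05). ETV5 stood at 1.59 to 2.27 CPM against 6.72 to 7.37 CPM (log2 change -1.95, SE 0.15, edgeR adjusted p 2.34e-05). For both, the highest NPY1R high library was well below the lowest NPY1R low library.

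CXCR4, a chemokine receptor, was next, at 12.4 ± 2.48 CPM in the NPY1R low and 4.22 ± 1.16 CPM in the NPY1R high libraries (SD, n = 4 each; log2 change -1.54, SE 0.21, edgeR adjusted p 0.00096). Of the feedback inhibitors of the cascade 7 fell, SPRY4 by 1.19, DUSP5 by 0.97, SPRY1 by 0.72, DUSP4 by 0.64, DUSP6 by 0.56, SPRED1 by 0.44 and SPRED2 by 0.36 on the log2 scale. SPRY2, of the same family, was not called (log2 change 0.28, edgeR adjusted p 0.320). ETV1 fell by 1.15 from a low level, 0.560 ± 0.121 to 0.254 ± 0.0703 CPM (SD, n = 4 each). It was at most 0.330 CPM in NPY1R high, below the filter's level of about 0.374 CPM. ETV1 thus entered the fit only through NPY1R low, the group in which it was high. For all 11 lower genes, each NPY1R high library was below each NPY1R low library. That alone makes them lower within replicates 1 and 2 and within replicates 3 and 4, so the division adds no support. The list gave 9 to 11 lower calls among 19 or 20 tested genes when each library was left out in turn. The immediate early gene EGR1 went the other way, with a log2 change of 0.85 (SE 0.22, edgeR adjusted p 0.0259), but its groups overlapped and it lost the call in 5 of the 8 fits without a library, the adjusted p reaching 0.0746. CCND1, MET, MYB and WNT11 had log2 changes between -0.03 and 0.17 and were not called. For MYB the groups did not overlap, at 66.2 to 72.2 CPM in NPY1R high and 57.5 to 65.4 CPM in NPY1R low. The other uncalled output genes were VGF, with 0.67 (edgeR adjusted p 0.140), and PHLDA1, with 0.45 (edgeR adjusted p 0.0849), whose groups did not overlap.

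**Figure D3:**
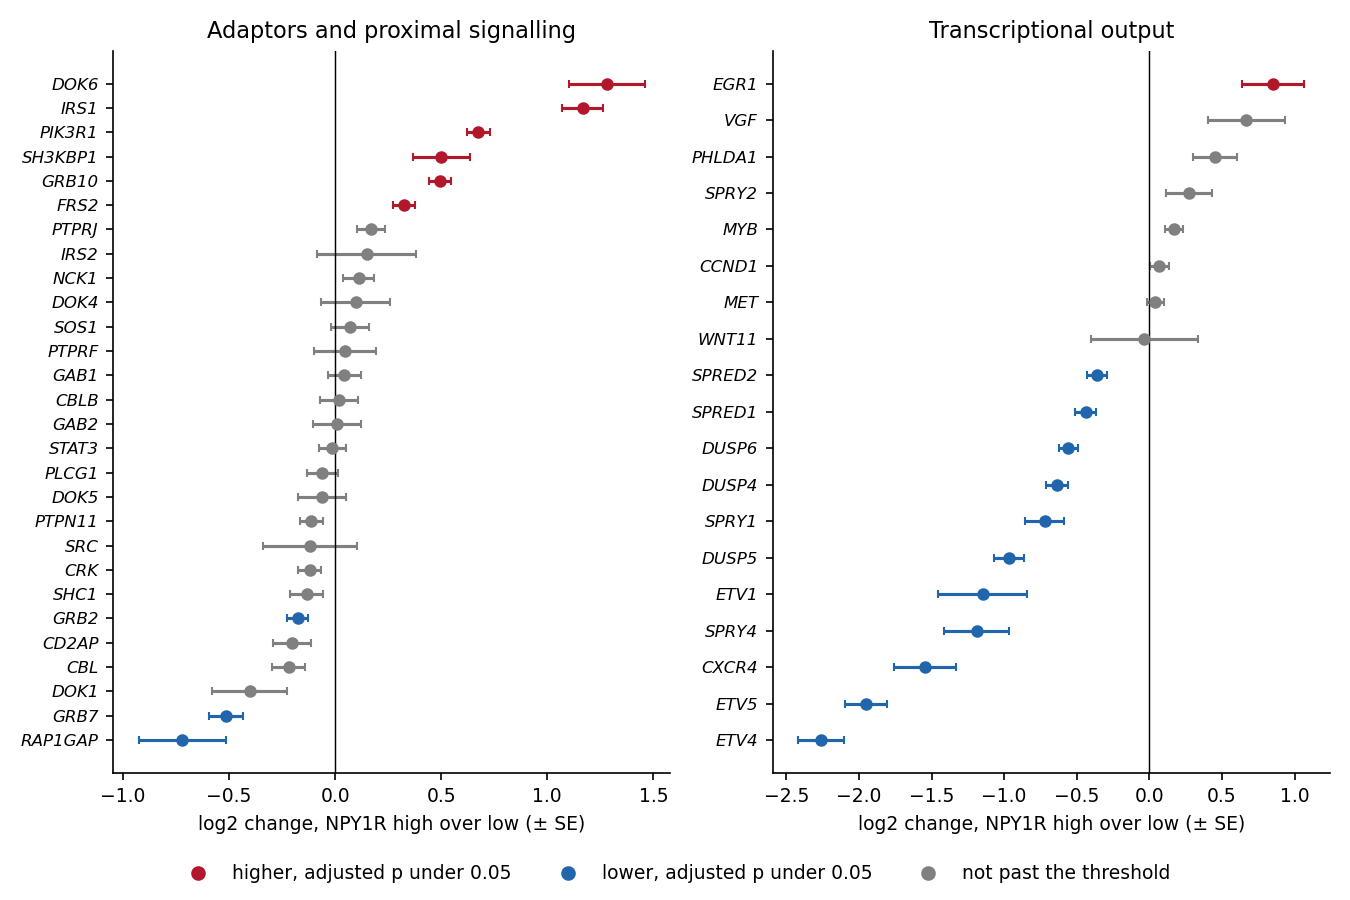
Log2 change in NPY1R high over NPY1R low, with its SE, for 28 tested adaptors of RET (left) and 19 tested output genes (right), sorted by size and coloured red where higher, blue where lower and grey where the adjusted p was not under 0.05. The adaptors spread to both sides of 0, with 6 red and 3 blue, and the output genes lie mostly to the left, with 11 blue and 1 red.

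Of 13 factors known to control RET or GFRA1, 6 were tested. ESR1, the estrogen receptor, rose from 70.1 ± 2.93 to 105.4 ± 3.76 CPM (SD, n = 4 each; log2 change 0.59, SE 0.05, edgeR adjusted p 7.23e-05), and GATA3, a luminal factor, by 0.60 (SE 0.11, edgeR adjusted p 0.00616). FOXA1, the forkhead factor that opens chromatin for the estrogen receptor, had a log2 change of -0.23 (SE 0.05, edgeR adjusted p 0.00891) and lost the call in 3 of 28 alternatives, with adjusted p up to 0.0677. TFAP2C, the AP-2 factor known to bind at RET, had 0.07 (SE 0.08, edgeR adjusted p 0.693), and TFAP2A -0.25 (SE 0.08, edgeR adjusted p 0.0602). The median of the 6 was 0.12. Of the neural crest factors on the list, PAX3 had 0 counts and SOX10 had 4 counts over the 8 libraries.

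Other neurotrophic receptors were also listed. Of 14 genes for neurotrophins, ciliary factor, LIF and their receptors, 6 were tested and 1 was called, with a median log2 change of -0.03. Of all 14008 tested genes 13.6% were called, so nothing is read from this count. The called gene was NTRK3, the neurotrophin-3 receptor (log2 change 3.40, SE 0.42, edgeR adjusted p 0.000536). It stood at 4.36, 4.09, 8.21 and 11.7 CPM in NPY1R high and 0.369, 0.560, 1.01 and 0.786 CPM in NPY1R low. As with GFRA1, replicates 3 and 4 lay above replicates 1 and 2 in both groups. Its ligand NTF3 had 5 counts over the 8 libraries. The cytokine receptors LIFR and IL6ST had log2 changes of -0.08 and 0.03 and were not called. Nor were NTRK2, the receptor of BDNF, with 1.36 (edgeR adjusted p 0.0672), SORT1 with -0.23 (edgeR adjusted p 0.0903) or CNTF with -0.81 (edgeR adjusted p 0.541), and the groups did not overlap for NTRK2 and SORT1. NTRK2 was at most 0.315 CPM in NPY1R low, below the filter's level of about 0.374 CPM. It thus entered the fit only through NPY1R high, the group in which it was high.

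The genes whose profile over the 8 libraries was nearest to that of GFRA1 were ranked by the root mean square difference of log2 CPM, each gene centred on its own mean, among 10442 tested genes with a mean of at least 5 CPM. They were DCX (0.37), a microtubule protein of migrating neurons, NPY1R itself (0.38), the non-coding RNA DSCAM-AS1 (0.42), the protocadherin PCDH7 (0.45) and the calcitonin receptor CALCR (0.50). DCX averaged 1.15 ± 0.208 CPM in the NPY1R low and 10.8 ± 2.97 CPM in the NPY1R high libraries (SD, n = 4 each). The GFRA1 profile is mostly the difference between the groups, so genes picked for nearness to it must differ widely in the same direction. The log2 changes of these 5 were 2.95 to 3.36, against 3.77 for GFRA1.

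The genes nearest to RET by the same measure were SOX9 (0.09), SERPINA1 (0.11), MACC1 (0.12), LMO4 (0.12) and PLK2 (0.13). Their log2 changes, whose direction the choice by nearness largely sets, ran from -0.62 for MACC1 to -0.35 for SOX9. SOX9 and SERPINA1 were not called (edgeR adjusted p 0.215 and 0.130).

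**Figure D4:**
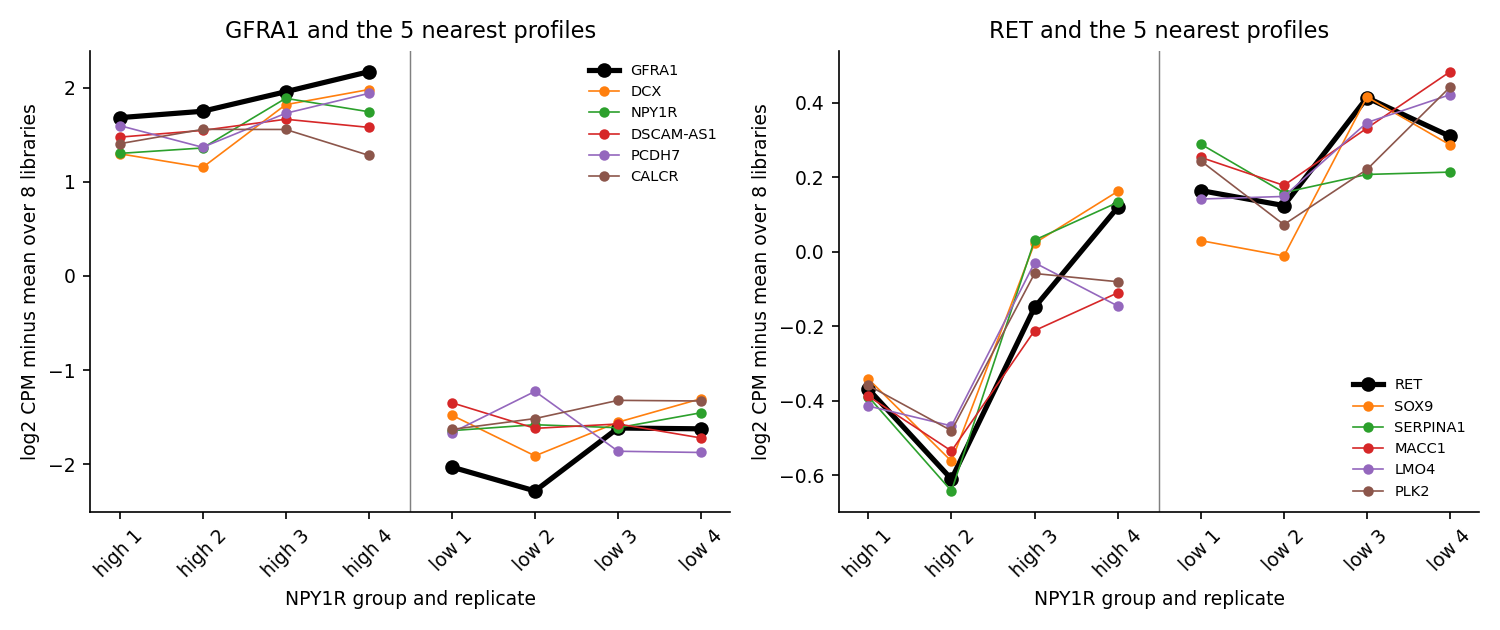
Log2 CPM minus the gene's mean over the 8 libraries (vertical axis) for GFRA1 (left) and RET (right), in black, with the 5 nearest genes of each in colour, by group and replicate. Lines join libraries of a group only to guide the eye. GFRA1 and its 5 nearest genes lie above 0 in each NPY1R high library and below 0 in each NPY1R low library, whereas RET spans a narrower range and is above 0 in NPY1R high replicate 4.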

How the data were processed

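RNA was measured in 8 BT474 libraries prepared with a stranded kit (200 ng input), per the labels' protocols. The authors deposited unscaled expected counts for each gene symbol. STAR 2.5.2, RSEM 1.3.0 and build hg38 are named in the submitters' processing notes; the annotation and strand setting are not given in the sources used here. Values of the series table and of the 8 per-sample tables were compared and 0 differed, and columns of unmatched samples numbered 0. Pairs of libraries within a group had a chi-square of at least 5.99 per degree of freedom, so none was a repeat of another.

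Expected counts were rounded, since the fit needs whole numbers. Genes were filtered with edgeR's filterByExpr (minimum count 10), leaving 14008, and scaled by TMM (trimmed mean of log ratios). The groups were compared with edgeR 4.0.16 (R 4.3.3) by the quasi-likelihood test without covariates, with Benjamini-Hochberg adjustment over all tested genes and a threshold of 0.05. The SE is the log2 change divided by the square root of the F statistic. CPM use the TMM-scaled totals, and log2 CPM a prior count of 2. On simulated counts, 92.5% of 200 genes changed by a log2 of 1 and 37% of 200 changed by 0.5 were recovered. Unchanged genes called in these runs numbered 15 and 2, and 0 where no gene was changed. The simulation gave all genes the same variability and no division of the replicates, unlike the data.

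Lengths and GC content are means over GENCODE 29 basic protein-coding transcripts. GC content was matched for 94.1% of tested genes. Positions and promoter sequences are RefSeq's for GRCh38.p14, the build hg38 names, with all 10 members matched for position and 8 of them in the promoter table. Members and lists were chosen with earlier results of these data known. Named were the members, NPY1R, ESR1, up to 4 called genes of each list with the largest change and any needed to account for a count of 5 or fewer, the 5 nearest profiles of GFRA1 and RET, and their nearest tested neighbours. Other genes were named after their values were seen, and some listed genes are not reported here. Alternatives were other scalings, filters, TMM references, DESeq2 1.42.0, limma-voom (limma 3.58.1), robust shrinkage, a replicate block, a term for replicates 1 and 2 against 3 and 4, a GC offset (a spline with 5 degrees of freedom per library), and leaving out each library.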

Additional observations from a re-analysis of the deposited data

Results flagged for a closer look

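In NPY1R high replicate 4, GFRA2 stood apart at 1.08 log2 CPM, where the other 3 NPY1R high libraries lay between 0.50 and 0.57. The same library stood apart for ARTN, at -0.15 log2 CPM against -0.97 to -0.84. It was the shallowest library, with 18025648 counts. GFRA1 over RET per length stood apart in NPY1R high replicate 2, at 2.35 against 1.90 to 1.97, where RET was at its lowest (62.8 CPM). In NPY1R low replicate 4, summed fibroblast markers were at 10.45 CPM against 16.6 to 17.5 CPM, nearly all of it COL1A1, and summed endothelial markers at 13.5 CPM against 17.6 to 18.2 CPM, nearly all of it VWF. In each case the gap to the nearest library exceeded Dixon's 95% critical value for 4 samples. Of 40 group values examined 5 stood out in this way, and chance gives about 2. Their part in the results was not tested.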

How the results depend on the processing

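Over all alternatives the log2 difference lay between 3.65 and 3.90 for GFRA1, -0.58 and -0.38 for RET, 1.48 and 1.88 for GFRA2, and 1.60 and 2.00 for ARTN, so none changed direction. ARTN has no value where 1 CPM in 4 libraries or 10 counts in every library was required, and GFRA2 none in the latter. At an adjusted p under 0.01, 470 genes were higher and 562 lower. Adding a term that separates replicates 1 and 2 from 3 and 4 gave 1681 lower genes, and the GC offset 1795. With each library left out, 625 to 1064 were lower: 625 without NPY1R high replicate 4, 710 without NPY1R high replicate 3 and 678 without NPY1R low replicate 1. Replicate numbers were not taken as pairs. Deviations of same-numbered libraries from the group means correlated at 0.339, 0.157, 0.0907 and 0.0178, and 2 of 8 libraries correlated best with their own number. The sample titles end in numbers that are consecutive for the low and high library of each replicate number. What these numbers mark is not stated, so handling in pairs remains possible. Across the groups, correlations were 0.0178 to 0.501 within replicates 1 and 2 or within 3 and 4, and -0.475 to -0.0773 between these sets. The replicate block gave 805 higher and 1028 lower, and with the GC offset as well 1353 and 2047. Of the genes listed with the surface partners 1 was called where 10 counts in every library were required, since GDF15 was then not tested. Of the neurotrophic receptors 2 were called with the replicate block, the term, the GC offset, and the block with the offset. Of the factors that control RET, 5 were called with the GC offset, with and without the block. Without a filter the median of that list was -0.19, over 11 genes. The causes were not tested. Besides the members, 18 of the named genes were recomputed under the alternatives, and none of these reversed. In all, 762 of 823 alternative values were classed as unchanged. For genes other than members this meant the same direction and call, and for counts a value within 1.5 times the reported one. For the members it meant a shift smaller than the SD between replicates. A further 51 were weaker, being lost calls or reduced counts, and 10 were stronger, all of them raised counts of called genes. Depth limits GDNF, NRTN, GFRA3, GFRA4, PSPN and GFRAL, for which a difference was not detectable.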
